A study of Mus musculus with 4 samples.

Results

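The clustered protocadherins are cell adhesion proteins encoded by neighbouring alpha, beta and gamma gene clusters on mouse chromosome 18. Members were the genes whose symbol belongs to 1 of these clusters and that the platform annotation gives a probe set of their own. There were 23 of them among 22180 measured genes: all 22 genes of the beta cluster, 1 of the 22 genes of the gamma cluster (Pcdhga10) and 0 of the 14 genes of the alpha cluster. Each had 1 such probe set. The samples were 4 primary neuroblastoma tumours of 1 group, with 1 Affymetrix array per tumour. All 4 carry mutant Alk, the TH-MYCN transgene and Stat6-/- on a C57BL/6 x 129Sv/J background. The transgene drives MYCN from the tyrosine hydroxylase promoter, that is in cells of the sympathetic lineage, and Stat6 is the transcription factor through which IL-4 and IL-13 polarize macrophages. Stat6-intact tumours are not analysed here. The values therefore describe 1 genotype and the spread between its tumours, and no test between groups was possible. The labels do not state age, the exact Alk allele or whether each tumour came from an animal of its own.

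In neurons, each clustered protocadherin isoform starts from its own promoter, and a cell picks a small, partly random set of them. The chosen promoters are bound by CTCF and looped by cohesin to distant enhancers, while the unchosen ones are methylated. The isoforms pair only with the same isoforms on another cell, which gives each neuron a surface identity that serves self-avoidance and synapse formation. Alpha and gamma transcripts join a variable exon to constant exons that every member of the cluster shares, whereas each beta gene is a complete coding exon with no shared part. In human neuroblastoma, methylation of the PCDHB genes is a known marker of poor outcome. Methylation was not measured here.

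The tumours matched their label as sympathetic tumours more than the tissue given for them. All 13 measured sympathetic neuroblast markers had a 4-tumour mean above the background floor, a log2 value of 6.17 set at the 95th percentile of 1394 olfactory and vomeronasal receptor genes. Of 8 skeletal muscle markers 0 passed it, although the labels name a neck muscle as the tissue. The arrays were not level with each other: the receptor median was 3.85, 3.95, 4.10 and 4.10 in tumours 1 to 4, so that dim genes as a whole read higher in tumours 3 and 4. Tumour 4 stood apart in Xist, which coats the inactive X chromosome, with 10.13 there and 3.89 to 3.95 in tumours 1 to 3. The Y chromosome genes Eif2s3y and Uty were at 7.47 to 7.89 and 7.24 to 7.58 in tumours 1 to 3. In tumour 4 they were at 3.90 and 3.89. The sex of the animals is not labelled, but these values read as female for tumour 4 and male for tumours 1 to 3. Sex cannot be told apart from the other properties of tumour 4.

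Most clustered protocadherins lay below the floor. Of the 23 members, 6 (26.1%) had a 4-tumour mean above it, where 40.5% of all genes did. These were Pcdhb4, Pcdhb6, Pcdhb13, Pcdhb17 and Pcdhb20 of the beta cluster, 22.7% of its 22 genes, and Pcdhga10 of the gamma cluster. The median of the 4-tumour means was 5.15 over the beta genes and 5.59 over all genes (log2 level). A gene below the floor may still be expressed. In a bulk tumour, fewer cells that express an isoform and less RNA per cell cannot be told apart, and a level averaged over cells that chose different isoforms says nothing of the choice in any cell.

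Pcdhb6 was well above the floor in every tumour, with 7.69, 7.75, 7.90 and 7.62 in tumours 1 to 4 (7.74 ± 0.12, SD, n = 4). Pcdhb20 was also above it throughout, with 7.33, 7.17, 7.07 and 7.10 (7.17 ± 0.12, SD, n = 4). These are the members whose mean also passed the 99th percentile of the receptor genes, 7.14, where 25.3% of all genes did. Pcdhb20 passed it narrowly, and its values in tumours 3 and 4 lay below it. Pcdhb4 measured 6.63, 6.69, 6.22 and 6.56 in tumours 1 to 4 (6.53 ± 0.21, SD, n = 4), lowest in tumour 3. Pcdhb17 had the widest spread of the beta genes, with 6.90, 6.37, 6.49 and 6.01 (6.44 ± 0.37, SD, n = 4). It ran highest in tumour 1 and lowest in tumour 4, where it fell under the floor. Pcdhb13 measured 6.26, 6.11, 6.30 and 6.49 (6.29 ± 0.16, SD, n = 4), with its mean 0.12 above the floor and tumour 2 below it. All 5 encode cadherin-repeat adhesion proteins of the same build, and beta genes are close paralogs whose probes can share signal.

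Set against the receptor floor of each array, which was 5.91, 6.14, 6.37 and 6.43 in tumours 1 to 4, the members above it numbered 6, 5, 4 and 5. The matching shares of all genes were 44.6%, 40.6%, 36.7% and 36.1%. Pcdhb6, Pcdhb20 and Pcdhga10 passed in all 4 tumours. Pcdhb4 dropped out in tumour 3, Pcdhb17 in tumour 4 and Pcdhb13 in tumours 2 and 3. With tumour 1 left out of both the means and the floor, the floor was 6.31 and 4 members passed it, 3 of them beta genes: Pcdhb13 and Pcdhb17 were then below it. With any other tumour left out in this way, the same 6 genes passed.

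**Figure D1:**
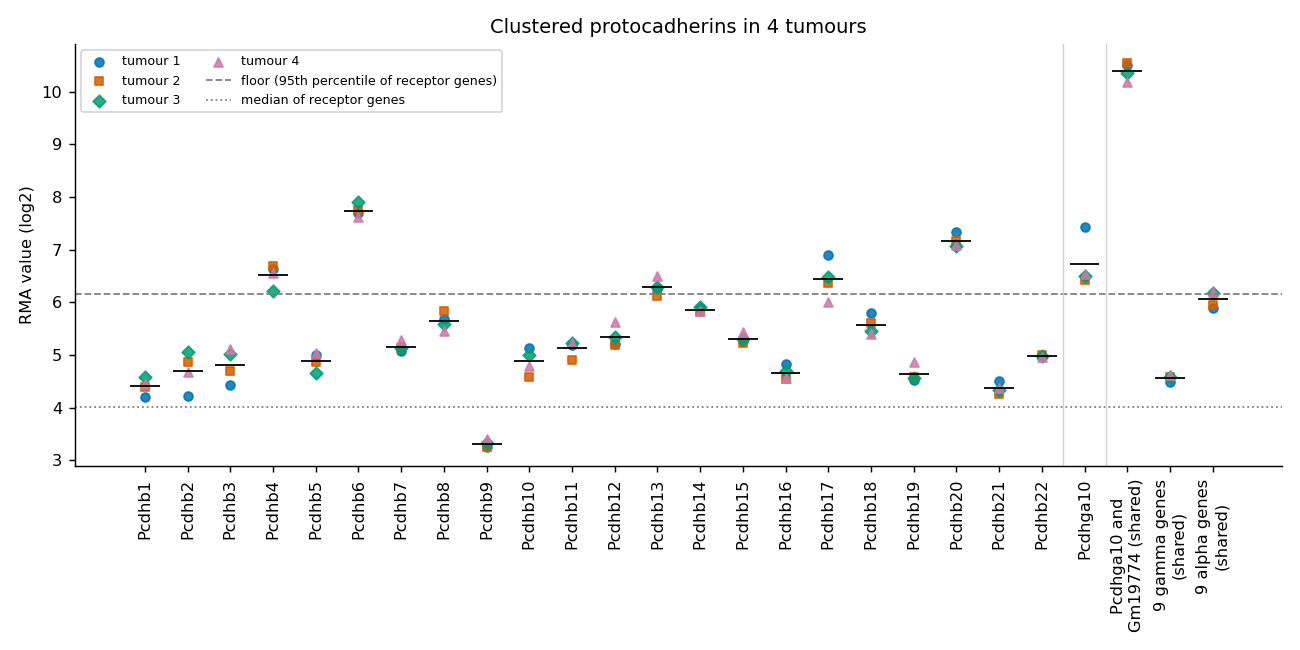
RMA values (log2) of the 22 beta genes in their order along the chromosome, of Pcdhga10 and of 3 probe sets shared by several genes. Points are the 4 tumours and bars their mean, the dashed line is the floor of 6.17 and the dotted line the receptor median of 4.01. Of the probe sets with a gene of their own, 6 have a mean above the dashed line, and 22 of 23 lie above the dotted one.

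The genes above the floor were not next to each other along the beta cluster. They are the genes at positions 4, 6, 13, 17 and 20 of 22, and of the 21 pairs of adjacent genes 0 had both members above the floor. With so few genes above it, few such pairs would arise in any order, and the spacing was not tested. Pcdhb1, at the alpha-facing end and the beta gene that lacks the promoter element which CTCF binds in the others, measured 4.21, 4.40, 4.59 and 4.44 in tumours 1 to 4 (4.41 ± 0.16, SD, n = 4). At the other end Pcdhb22 measured 4.97, 5.0, 4.98 and 4.96 (4.98 ± 0.02, SD, n = 4). Both ends of the cluster were therefore under the floor in every tumour.

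The 17 beta genes under the floor were not all at the level of the receptor genes. Pcdhb9 was the dimmest of the members, with 3.26, 3.26, 3.32 and 3.41 in tumours 1 to 4 (3.31 ± 0.07, SD, n = 4), and the beta gene whose mean lay below the receptor median. The other 21 beta genes lay above that median of 4.01, as did 86.1% of all genes. Their shares crossed as the floor was raised. At the 75th percentile of the receptor genes 15 beta genes (68.2%) passed, against 65.9% of all genes. At the 90th, 6 beta genes (27.3%) passed, against 48.5% of all genes. Most beta genes thus lay between the receptor median and the floor.

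Closest below the floor was Pcdhb14, with 5.90, 5.82, 5.91 and 5.83 in tumours 1 to 4 (5.86 ± 0.04, SD, n = 4). Pcdhb8 and Pcdhb18 followed, at 5.64 ± 0.16 and 5.57 ± 0.17 (SD, n = 4). Pcdhb8 ran from 5.46 in tumour 4 to 5.83 in tumour 2, and Pcdhb18 from 5.40 in tumour 4 to 5.79 in tumour 1. These genes are beta isoforms with no separate role that is firmly established. Pcdhb12, Pcdhb15, Pcdhb7 and Pcdhb11 had means of 5.34, 5.31, 5.16 and 5.13. Pcdhb5, Pcdhb10, Pcdhb16, Pcdhb19 and Pcdhb21 had means of 4.89, 4.88, 4.66, 4.63 and 4.37. Since signal depends on the probes used, these means give no order of expression between isoforms.

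**Figure D2:**
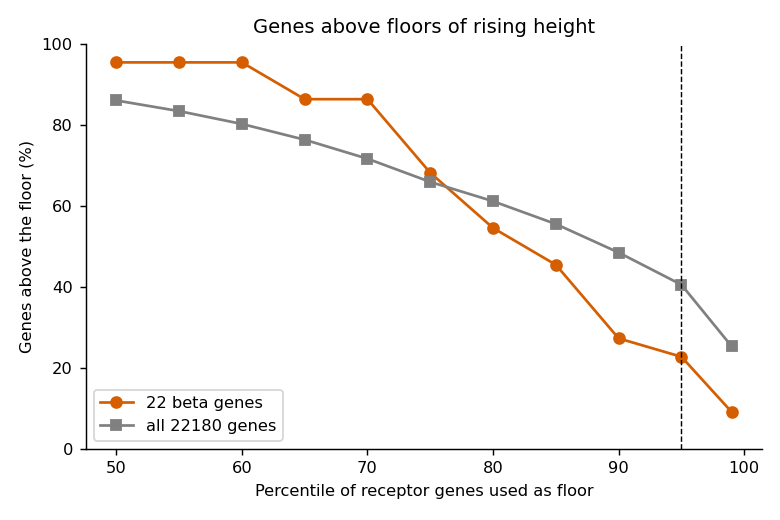
Share of genes (%) with a 4-tumour mean above a floor set at a given percentile of the receptor genes, for the 22 beta genes and for all 22180 genes. The beta genes start higher, at 95.5% against 86.1% at the 50th percentile, and end lower, at 9.09% against 25.3% at the 99th.

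The alpha and gamma clusters could be read almost only through shared probe sets. A probe set annotated to 9 alpha genes (Pcdha1, Pcdha2, Pcdha4, Pcdha9, Pcdha10, Pcdha11, Pcdha12, Pcdhac1 and Pcdhac2) measured 5.89, 5.95, 6.19 and 6.20 in tumours 1 to 4 (6.06 ± 0.16, SD, n = 4). Its mean lay 0.11 below the floor, and it was under the floor of its own array in all 4 tumours. The other 5 alpha genes (Pcdha3, Pcdha5, Pcdha6, Pcdha7 and Pcdha8) were not listed in the annotation. A probe set annotated to 9 gamma genes (Pcdhga3, Pcdhga8, Pcdhga9, Pcdhga11, Pcdhga12, Pcdhgb6, Pcdhgc3, Pcdhgc4 and Pcdhgc5) measured 4.49, 4.58, 4.59 and 4.62 (4.57 ± 0.06, SD, n = 4), 1.60 below the floor and 0.56 above the receptor median. A further 12 gamma genes were not listed. Which exons these probe sets cover is not stated in the annotation. Neither value can be assigned to the constant exons or to 1 isoform, and alpha, beta and gamma cannot be ranked from them.

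Pcdhga10, a gamma isoform of the A type, was the gamma gene with a probe set of its own. It measured 7.44, 6.43, 6.5 and 6.54 in tumours 1 to 4 (6.73 ± 0.48, SD, n = 4). Tumour 1 was high and the other 3 lay within 0.11 of each other. Its range of 1.01 log2 units was the member range that reached 1 (2-fold), 4.35% of the 23 members, where 2.74% of all genes reached it. Without tumour 1, and equally without tumour 2, 0 members did. The gap of tumour 1 passed Dixon's critical value, as did an extreme tumour in 2 beta genes, together 13.0% of the members beside 4.55% of all genes. A second probe set, annotated to Pcdhga10 and to the predicted gene Gm19774, did not show this difference. It measured 10.51, 10.54, 10.36 and 10.18 (10.40 ± 0.17, SD, n = 4), highest in tumour 2 and lowest in tumour 4. The probe sets that carry the name Pcdhga10 therefore differ in pattern, and its value is uncertain.

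Most fibroblast and Schwann cell markers, like the own probe set of Pcdhga10, were relatively high in tumour 1. Relative to genes of like level, 6 of 7 fibroblast markers and 5 of 6 measured Schwann cell markers were higher there, with median relative deviations of 0.46 and 0.33. The mean level of the fibroblast markers was 7.0, 6.18, 6.44 and 6.04 in tumours 1 to 4, and that of the Schwann cell markers 6.25, 5.91, 5.57 and 5.84. Fabp7, a glial fatty acid binding protein, carried most of the Schwann cell spread, with 9.54, 8.49, 6.49 and 8.32, and was the Schwann cell marker above the floor. Without it the mean levels were 5.60, 5.40, 5.39 and 5.35, and S100b was lower in tumour 1. Of the defining genes, Dcn, which encodes the matrix proteoglycan decorin, stood at 8.26 in tumour 1 against 6.17 to 6.55 in tumours 2 to 4. Pdgfra, a growth factor receptor of fibroblasts, and Sox10, a transcription factor of Schwann cells, were under the floor at 4.37 ± 0.15 and 5.64 ± 0.19 (SD, n = 4). In tumour 1 Pdgfra went the other way, with a relative deviation of -0.06, and Sox10 was at 0.08. Sox10 was highest in tumour 3, at 5.87. The part of these cells in the Pcdhga10 value was not tested.

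By median range, the beta genes varied between tumours about as much as all genes did. Their ranges ran from 0.04 (Pcdhb22) to 0.89 (Pcdhb17), with a median of 0.35 log2 units, where the median of all genes was 0.37. Of the 22, 0 had a range of 1, which 2.74% of all genes reached. At that share, 0 in so short a list says little. A range of 1.5-fold was reached by 3 of the 22, where 18.5% of all genes did. Against the median range of genes of like level, 9 of 22 were wider. Between any pair of tumours the median absolute difference over the beta genes was 0.14 to 0.23, and over all genes it was also 0.14 to 0.23. The pairs did not match 1 by 1. Between tumours 1 and 2 it was higher over the beta genes, 0.15 against 0.14. In every other pair it was lower, most so between tumours 1 and 3, with 0.14 against 0.20.

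After Pcdhb17, the widest beta genes were a neighbouring pair at the alpha-facing end. Pcdhb2 measured 4.22, 4.86, 5.06 and 4.68 in tumours 1 to 4 (4.70 ± 0.36, SD, n = 4). Its range of 0.84 was the beta range that exceeded the 95th percentile of genes of like level, 0.75. Pcdhb3 measured 4.43, 4.70, 5.01 and 5.12 (4.82 ± 0.32, SD, n = 4), with a range of 0.70. Both were lowest in tumour 1 and both were under the floor throughout, at a level where dim genes as a whole also read lowest in tumour 1. With that offset taken out, Pcdhb2 still lay 0.38 and Pcdhb3 0.29 below genes of like level in tumour 1. Pcdhb14 and Pcdhb22, with ranges of 0.09 and 0.04, were narrower than the 5th percentile of such genes (0.14 and 0.12).

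**Figure D3:**
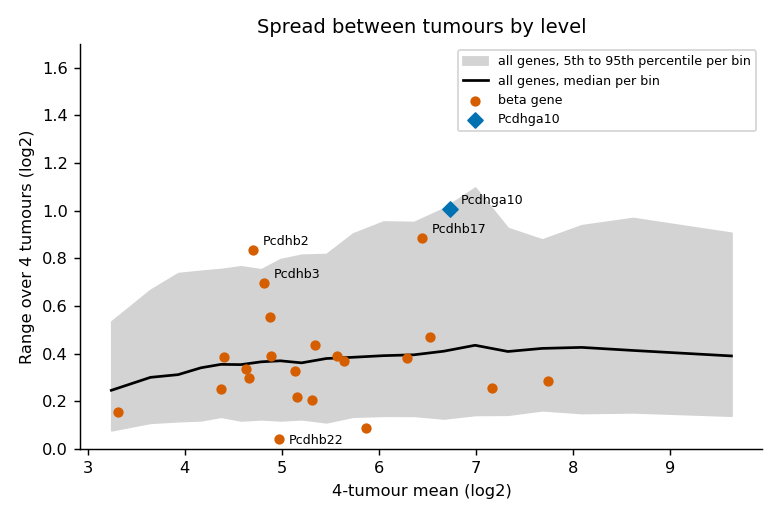
Range over the 4 tumours (log2) against the 4-tumour mean (log2) for the 22 beta genes and Pcdhga10. The line is the median range of all genes in each of 20 bins of level and the band their 5th to 95th percentile. Pcdhb2, at 0.84, lies above the band, and Pcdhb14 and Pcdhb22 lie below it.

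The median beta gene stayed close to genes of like level in every tumour. The relative deviation of a gene is its value minus its own 4-tumour mean, with the median deviation of all genes of like level subtracted. Its median over the 22 beta genes was 0.03 in tumour 1, -0.03 in tumour 2, 0.01 in tumour 3 and -0.01 in tumour 4, with an SD over members of 0.20, 0.12, 0.14 and 0.16. The SD over all genes was 0.18, 0.17, 0.18 and 0.20. The spread among the beta genes was thus somewhat wider than that in tumour 1 and narrower in tumours 2 to 4, which was not tested. In each tumour some genes were higher and others lower, 12 and 10 in tumour 1, 8 and 14 in tumour 2, 12 and 10 in tumour 3 and 10 and 11 in tumour 4. The value farthest from 0 was that of Pcdhb17 in tumour 4, at -0.41. In tumour 1 Pcdhb17 lay 0.39 and Pcdhb10 0.36 above genes of like level, while Pcdhb2 was at -0.38. In tumour 4 Pcdhb18 and Pcdhb8 were each at -0.24, and Pcdhb3, Pcdhb12 and Pcdhb13 were each at 0.21. In tumour 3 Pcdhb2 was at 0.33 and Pcdhb6 at 0.27, and in tumour 2 Pcdhb10 was at -0.27.

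Before this offset was taken out, 9 of the 22 beta genes had their highest value in tumour 4, where 32.5% of all genes did. Of the 17 beta genes under the floor, 8 were highest there, beside 44.2% of all genes under the floor.

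The relative deviation of the shared alpha probe set was -0.19, -0.08, 0.15 and 0.12 in tumours 1 to 4, lower in tumours 1 and 2 and higher in tumours 3 and 4. That of the shared gamma probe set was 0.01, 0.04, 0.00 and -0.05, close to 0 in all 4. Pcdhga10 was at 0.60 in tumour 1 and at -0.30, -0.18 and -0.13 in tumours 2 to 4. The probe set shared by Pcdhga10 and Gm19774 did not show this rise, with -0.0003, 0.053, 0.068 and -0.115 in tumours 1 to 4. In tumour 1, therefore, the own probe set of Pcdhga10 read higher, the alpha probe set lower and the beta median near 0. Each is set beside genes of like level, and the Pcdhga10 value is uncertain. With 1 probe set for alpha and 1 gene for gamma, these differences between the clusters were not tested.

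**Figure D4:**
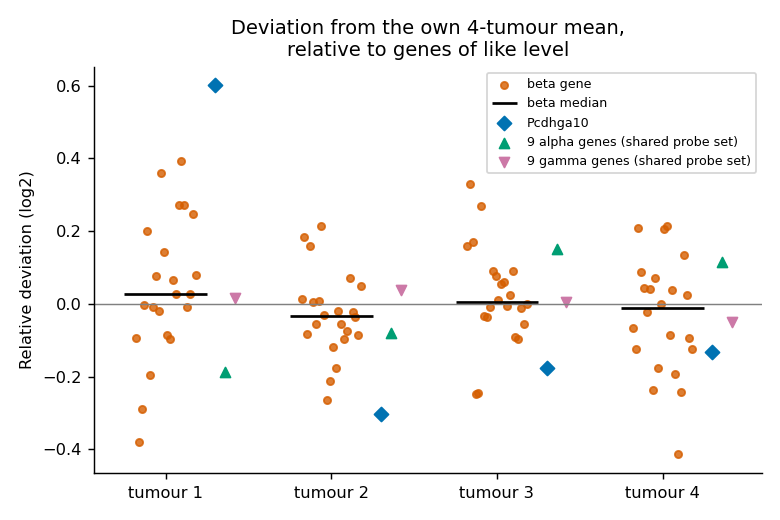
Relative deviation (log2) in each of the 4 tumours for the 22 beta genes, with their median as a bar, for Pcdhga10 and for the shared probe sets of 9 alpha and of 9 gamma genes. The beta medians lie between -0.03 and 0.03, and Pcdhga10, by its own probe set, stands at 0.60 in tumour 1. The probe set shared by Pcdhga10 and Gm19774 is not shown.

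Genes in and around the clusters did not all lie on the same side of the floor. Since signal depends on the probes used, a value under the floor does not show that a gene is silent. Taf7, a subunit of the general transcription factor TFIID, and Slc25a2, a mitochondrial ornithine carrier, lie between the beta and gamma clusters, and both were under the floor, at 4.78 ± 0.08 and 4.19 ± 0.11 (SD, n = 4). Of the 9 measured genes directly beside the clusters, 6 (66.7%) were above it, beside 40.5% of all genes. Beyond the gamma end, Diaph1, a formin that nucleates actin, measured 6.36 ± 0.12 and Hdac3, a histone deacetylase, 9.93 ± 0.25. Beyond the alpha end, Zmat2, a splicing factor, measured 8.45 ± 0.10 and Hars, the histidyl-tRNA synthetase, 8.42 ± 0.20 (SD, n = 4). Of these 9 genes 0 had a range of 1 log2 unit, which 2.74% of all genes did. At that share, 0 in so short a list says little.

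Factors that act on the clusters were mostly above the floor. Of 21 measured genes of this list, 19 (90.5%) were above it, beside 40.5% of all genes. A range of 1 log2 unit was reached by 0 of the 21, beside 2.74% of all genes. At that share, 0 in so short a list says little. Ctcf, which binds the isoform promoters, measured 8.36, 8.34, 8.06 and 8.16 in tumours 1 to 4 (8.23 ± 0.15, SD, n = 4). Rad21, a cohesin subunit, measured 10.03, 10.13, 9.95 and 9.84 (9.99 ± 0.12, SD, n = 4). Smchd1, a chromatin protein that silences the clusters in mice, measured 8.62, 8.63, 7.98 and 8.01 (8.31 ± 0.36, SD, n = 4), higher in tumours 1 and 2. Hells, a chromatin remodeller, and Uhrf1, which guides maintenance methylation, had the widest ranges of the list beside it, 0.66 and 0.64. The narrowest above the floor were Wiz, a partner of cohesin on chromatin, at 7.31 ± 0.01 and Dnmt1, the maintenance DNA methyltransferase, at 9.78 ± 0.08 (SD, n = 4). The members under the floor were Dnmt3b, a de novo methyltransferase, at 5.69 ± 0.15 and Rest, a repressor of neuronal genes, at 4.66 ± 0.13 (SD, n = 4).

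Of 18 measured partners and processing enzymes most were detected, with 15 (83.3%) above the floor, beside 40.5% of all genes. Wasf1, Nckap1, Cyfip2, Abi1 and Brk1, subunits of the WAVE complex that protocadherin tails can bind, were all among them. A range of 1 log2 unit was reached by 0 of the 18, beside 2.74% of all genes. At that share, 0 in so short a list says little. Adam10, the sheddase that cleaves the ectodomain, measured 8.29 ± 0.25, and Ncstn, a subunit of gamma-secretase, 8.06 ± 0.03 (SD, n = 4). Ret, a receptor tyrosine kinase reported to associate with protocadherins, measured 9.55, 9.61, 9.74 and 10.18 in tumours 1 to 4 (9.77 ± 0.28, SD, n = 4), highest in tumour 4. Among those above the floor, Abi1 had the widest range, 0.66, followed by Ret with 0.63 and Pdcd10, an adaptor at cell junctions, with 0.57. Abi1 measured 7.55 ± 0.32 and Pdcd10 6.44 ± 0.26 (SD, n = 4). The genes under the floor were Ptk2b, Psen2 and Nlgn1, of which Nlgn1, a synaptic adhesion protein, had the widest range of the list, 0.94.

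Non-clustered protocadherins, which are genes of their own outside the clusters, included genes with wider spread. Of 12 measured, 2 (16.7%) were above the floor, beside 40.5% of all genes. These were Pcdh1 at 7.58 ± 0.19 and Pcdh10 at 7.08 ± 0.88 (SD, n = 4). Pcdh10, an adhesion protein of axon tracts, measured 7.58, 7.0, 5.88 and 7.85 in tumours 1 to 4, and Pcdh19, a protocadherin of the same subfamily, 5.86, 5.16, 4.6 and 6.01. Both were higher in tumours 1 and 4 and lowest in tumour 3, and their ranges of 1.97 and 1.41 were the 2 of 12 that reached 1 log2 unit, which 2.74% of all genes did. Some cell type markers were also lowest in tumour 3, and others were not. All 8 macrophage markers were, with mean levels of 7.74, 7.74, 7.10 and 7.71 in tumours 1 to 4, and so was Fabp7, with 6.49. Of the 6 measured Schwann cell markers 4 were lowest there and 2 highest. Of the 7 fibroblast markers 1 was lowest in tumour 3. Of the 5 endothelial markers 0 were lowest and 3 were highest there. Of the 13 measured sympathetic neuroblast markers 5 were lowest in tumour 3 and 6 in tumour 2, and 9 were highest in tumour 4. The part of these cells in the Pcdh10 and Pcdh19 values was not tested. Pcdh9 had the same high tumours, with 5.73 and 5.63 in tumours 1 and 4 and 4.88 and 4.86 in tumours 2 and 3. Of the 22 beta genes 0 had a range as wide as that of Pcdh10 or Pcdh19. A difference in spread between the clustered and non-clustered genes was not tested, and the median ranges were 0.37 over the 23 clustered members and 0.33 over the 12 non-clustered ones.

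**Figure D5:**
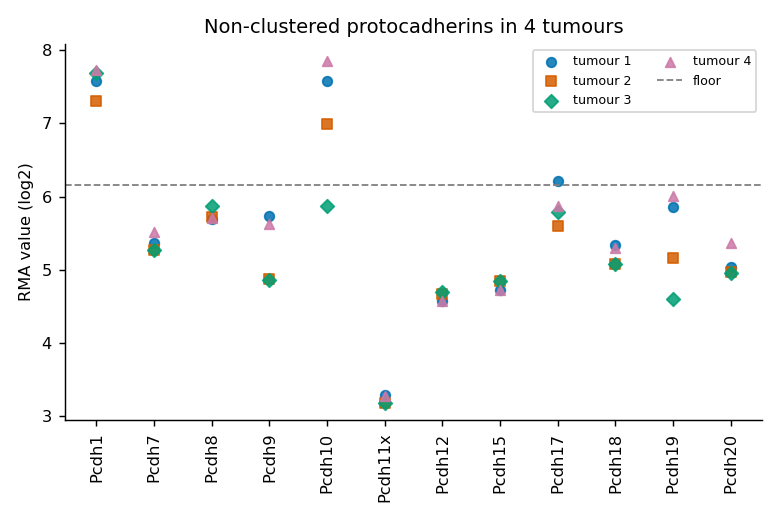
RMA values (log2) of the 12 non-clustered protocadherins in the 4 tumours, with the floor of 6.17 as a dashed line. Pcdh10 and Pcdh19 are spread over 1.97 and 1.41 log2 units and are lowest in tumour 3.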

How the data were processed

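Total RNA of 4 tumours was measured on 1-colour arrays, 1 per tumour. The deposited values were made by the authors with RMA and Partek, per the submitters' processing notes; no version or setting is given there. They are treated as log2 values: the log base is not stated, and they run from 2.47 to 13.6, as RMA log2 values deposited in this form do. Scale and normalization beyond that, and a genome build, stay unknown, and scanner files were not used here. Array medians were 5.15, 5.19, 5.25 and 5.29, and at most 0.22% of probe sets had identical values in a pair of arrays. Spread between tumours may be technical in part, and the number of arrays limits the precision.

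Of 41345 probe sets, 23521 were annotated to 1 gene and 1814 to several. Current symbols were taken by Entrez identifier from the RefSeq table of GRCm38.p6, which also gave the gene order. For a gene with several probe sets the highest mean was taken. The floor was the 95th percentile of 1394 receptor genes. A range of 1 log2 unit counted as variable. Relative deviations used 20 bins of level over all genes. The procedure was tested on simulated data. Python 3.11.15, numpy 2.4.6 and pandas 2.3.3 were used.

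The members and lists were chosen with earlier results of these data known. Every cluster gene may be named, with all 4 values for those above the floor and the widest and narrowest in range; of each other list, the 3 widest and 2 narrowest genes above the floor; and every non-clustered protocadherin. Other named genes (Pcdhb1, Pcdhb9, Ctcf, Rad21, Dnmt3b, Rest, Adam10, Wasf1, Nckap1, Cyfip2, Brk1, Ptk2b, Psen2, Nlgn1, Pdgfra, Sox10 and Xist) were picked after their values were seen. S100b, Eif2s3y and Uty were also picked in this way.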

Additional observations from a re-analysis of the deposited data

Results flagged for a closer look

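In 3 of 23 members 1 tumour lay further from the others than Dixon's 95% critical value for 4 samples, which is 13.0% of the members beside 4.55% of all genes; chance flags about 1 in 20 groups. Pcdhga10 stood at 7.44 in tumour 1 against 6.43 to 6.54 elsewhere, with a ratio of 0.89. Pcdhb11 stood at 4.90 in tumour 2 against 5.20 to 5.22 elsewhere, with a ratio of 0.93. Pcdhb19 stood at 4.86 in tumour 4 against 4.53 to 4.58 elsewhere, with a ratio of 0.84. Both beta genes were under the floor in every tumour.

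The probe set annotated to Pcdhga10 and Gm19774, which the choice of members leaves out, had a mean of 10.40, above the floor by 4.23. Which of the genes it reads was not tested.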

How the results depend on the processing

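With a floor at the receptors' 99th percentile 2 members passed, 2 beta and 0 gamma, and with it at the receptor median 22 passed, 21 of them beta. The 1 member with a range of 1 log2 unit became 0 with members above the 99th percentile only, after a further quantile normalization and with the probe set shared with Gm19774 taken for Pcdhga10, an alternative chosen after seeing the data; the cause was not tested. At a range of 1.5-fold it became 4 members, 3 of them beta. Over only the 5 beta members above the floor the beta shift was -0.0045, 0.056 and 0.024 in tumours 1, 3 and 4, and without subtracting genes of like level it was 0.019 in tumour 4. The gamma shifts, which rest on Pcdhga10, were 0.60, -0.30, -0.18 and -0.13 in tumours 1 to 4; they became 0.31, -0.13, -0.086 and -0.090 with the probe set of 9 gamma genes added, and -0.0003, 0.053, 0.068 and -0.12 with the one shared with Gm19774 in place of its own, near 0 in tumour 1 and of the other sign in tumours 2 and 3. Leaving out each tumour in turn gave 4 to 6 members and 3 to 5 beta genes above the floor, 0 to 1 with a range of 1, and beta shifts of 0.02 to 0.04, -0.04 to -0.01, -0.01 to 0.02 and -0.052 to 0.0095 in tumours 1 to 4. The Pcdhga10 shift was then 0.50 to 0.56, -0.36 to -0.09, -0.27 to 0.03 and -0.24 to 0.06. No paired analysis was possible because all samples form 1 group.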
